A study of Mus musculus with 11 samples.

Results

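The genes described here encode the nucleus-encoded subunits of the mitochondrial oxidative phosphorylation machinery in cultured mouse microglia, grouped by the complex their symbol names. They were chosen by symbol alone: Nduf genes of the a, b, c, s and v series (complex I), the 4 Sdh genes (complex II), Uqcr genes (complex III), Cox4 to Cox8 genes (complex IV) and Atp5 genes (complex V), with names of pseudogenes left out. Of 84 genes with such a symbol, 78 reached an FPKM (fragments scaled to transcript length and library size) of at least 1 in at least 2 of the 11 libraries, out of 34745 genes in the deposited table and 10938 genes that passed the same filter and were tested. These 78 comprised 36 genes of complex I, 4 of complex II, 8 of complex III, 13 of complex IV and 17 of complex V.

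Of the 6 genes that did not reach the minimum, Cox7b2, Cox8b and Cox8c had no count in any library. Cox6b2 stayed between 0.0472 and 0.617 FPKM, and Cox7a1, the heart and skeletal muscle isoform of its family, exceeded 1 FPKM in IFN-gamma replicate 1 alone, at 1.32. Ndufa4l2 had 511 counts (29.7 FPKM) in Control replicate 3 and at most 3 counts in each other library. That library also stands apart in markers of other cells, given with the library checks.

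All groups were primary adult microglia from C57BL/6 mouse cerebrum, taken at 6 to 8 weeks of age and kept for 10 to 14 days in medium with serum, 5 ng/ml TGF-beta1 and 10 ng/ml M-CSF. Control cells (n = 3) received no stimulus. The Pam3CSK4 group (n = 2) received 100 ng/ml of Pam3CSK4, a synthetic lipopeptide agonist of the receptor TLR2, for 24 h, and the IFN-gamma group (n = 3) received 20 ng/ml of interferon gamma for 24 h. The combined group (n = 3) received Pam3CSK4 for 24 h and then IFN-gamma for 24 h. Replicates 2 and 3 of the combined group carry another final digit in the agonist's name in 1 label field and were grouped by their titles. No label says whether replicates came from separate animals or cultures, nor at what time unstimulated and Pam3CSK4 cells were collected, so p-values measure the spread between these samples, which may be technical.

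Oxidative phosphorylation couples electron transfer to ATP synthesis in the inner mitochondrial membrane. Complexes I and II pass electrons from NADH and succinate to ubiquinone, complex III passes them on to cytochrome c, complex IV reduces oxygen, and complex V makes ATP from the proton gradient that complexes I, III and IV build. Most subunits are encoded in the nucleus and a small core in mitochondrial DNA, so both genomes contribute to every complex except II. In macrophages and microglia, the balance between respiration and glycolysis is known to shift on activation, and complexes I and II are also known as sources of reactive oxygen species and of succinate-linked signalling.

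Library totals ran from 15033702 to 20321017 counts. All 12 microglial markers on the list used were detected in every group, with a summed level of 7141 to 10377 FPKM in the Control libraries, 5495 to 5773 with Pam3CSK4, 8877 to 9560 with IFN-gamma and 5030 to 5281 with both. Markers of contractile mural cells and fibroblasts were high in 1 library each of 3 groups: Acta2, smooth muscle actin, stood at 865 FPKM in the third Control replicate. The first IFN-gamma library had 44.1 FPKM and the third combined library 10.5, against at most 1.41 elsewhere. The 12 markers of these cells summed to between 56.8 and 2318 FPKM in those 3 libraries and to between 1.15 and 3.99 in the other 8. Markers of endothelial cells (6 genes, 3 of them past the filter) summed to 17.1 to 26.5 FPKM in Control and 22.9 to 28.8 with IFN-gamma. The sums were 2.50 to 2.81 with Pam3CSK4 and 2.79 to 4.98 with both. Most of this was Flt1, with means of 14.4 FPKM in Control, 23.8 with IFN-gamma, 1.47 with Pam3CSK4 and 1.30 with both. Kdr did not follow, with means of 1.04, 0.411, 0.754 and 1.26 in the same order, so the sum does not describe the list as a whole. Markers of other immune cells (11 genes) summed to 3.98 to 9.75 FPKM in the 3 other groups and to 12.8 to 18.7 with both agents. Of these 11, 2 passed the filter and 3 were at 0 in every library. The 2 were S100a8, with means of 5.81 FPKM in Control, 4.66 with Pam3CSK4, 5.17 with IFN-gamma and 9.38 with both, and Ly6c2. Means of Ly6c2 were 0.0343, 3.57, 0.709 and 6.44 in the same order, so the sum rests mainly on these 2 genes. Astrocyte markers summed to at most 31.1, neuron markers to at most 10.8 and oligodendrocyte markers to at most 15.3 FPKM. The part of these cells in the results was not tested beyond refitting without the 3 libraries, and refitted counts are given with the comparisons. In bulk RNA, fewer cells of a type and less RNA per cell cannot be told apart.

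The 78 genes took 0.496, 0.493 and 0.527% of all counts in the Control libraries, 0.609 and 0.622% with Pam3CSK4, 0.674, 0.662 and 0.754% with IFN-gamma, and 0.574, 0.609 and 0.613% with both. No treated library overlapped the Control range. IFN-gamma replicate 3 was the highest of all 11 libraries and Control replicate 2 the lowest. Averaged over the 78 genes on the log2(CPM) scale (counts scaled to library size, with TMM factors for library composition), the IFN-gamma group stood 0.55 ± 0.15 (SD, n = 3) above the Control mean, the combined group 0.28 ± 0.06 (SD, n = 3) and the Pam3CSK4 group 0.19 ± 0.03 (SD, n = 2).

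Every complex showed the same order of group means. Complex IV differed most between IFN-gamma and Control libraries, at 0.59, 0.63 and 0.86 above the Control mean against 0.01, 0.13 and -0.14 in the Control libraries themselves. The 4 genes of complex II differed least, at 0.36, 0.39 and 0.59 against 0.05, 0.12 and -0.16. In complexes I, III and V the IFN-gamma libraries lay between 0.41 and 0.83. The Pam3CSK4 libraries lay between 0.14 and 0.26 in each of the 5 complexes, and the combined libraries between 0.18 and 0.45. The combined and Pam3CSK4 libraries overlapped in complexes I and II, so these neighbours in the order did not differ beyond their spread there.

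**Figure D1:**
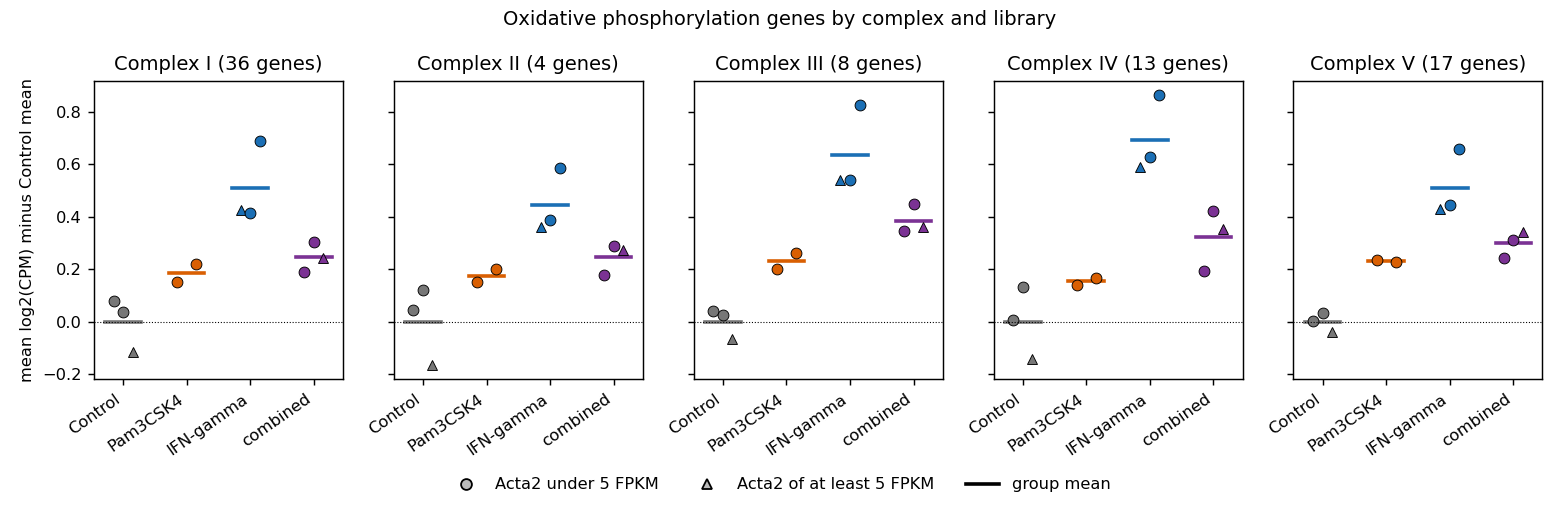
Mean log2(CPM) of the genes of each complex in each library, as the difference from the mean of the 3 Control libraries. Points are libraries (triangles, Acta2 of at least 5 FPKM), bars are group means, and the IFN-gamma group is the highest in all 5 panels, with replicate 3 on top.

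Levels of single genes ranged widely within a complex. In Control libraries Cox8a, a small subunit of complex IV, was the most abundant at 274 ± 7.34 FPKM (SD, n = 3), and Cox4i2, the low-oxygen isoform of the subunit made by Cox4i1, the least at 0.441 ± 0.190. Ndufb4 of complex I, at 1.11 ± 0.215 FPKM, and Atp5g2 of complex V were also near the minimum. Many genes of this class have processed pseudogenes, and how reads shared with such copies were counted is not given in the sources used here, so absolute levels are less certain than differences between groups. By group mean, the IFN-gamma group was the highest for 58 of the 78 genes and Control the lowest for 55.

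The first comparison asks how IFN-gamma alone moved these genes. IFN-gamma was followed by higher RNA of most subunits in every complex: 59 of the 78 genes rose and 1 fell past the threshold, where 20.0% and 21.6% of all tested genes rose and fell (edgeR's quasi-likelihood test, Benjamini-Hochberg adjusted p under 0.05). The median change was 0.55 on the log2 scale, or 1.47-fold, against -0.07 over all tested genes. The rise covered 27 of 36 genes of complex I, 3 of 4 of complex II, all 8 of complex III, 8 of 13 of complex IV and 13 of 17 of complex V, with medians of 0.51, 0.49, 0.60, 0.74 and 0.52. The FPKM values of both groups did not overlap for 59 genes that were higher and 2 that were lower, beside 18.9% and 32.1% of all tested genes. Of the 59 rises, 48 held when any single library was left out. Without the 3 Acta2 libraries the counts were also 59 and 1, and 59 of the 60 calls were shared; 24.2% and 22.6% of all tested genes then rose and fell.

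In complex I, the entry point for electrons from NADH, Ndufs3 of the ubiquinone-binding module showed the largest rise. It stood at 14.3, 13.0 and 14.5 FPKM in Control and at 26.1, 25.1 and 29.5 with IFN-gamma, a log2 change of 1.05 ± 0.09 (SE; edgeR adjusted p = 2.4e-05). The groups did not overlap. Ndufs7, which carries the last iron-sulphur cluster before ubiquinone, was at 14.1, 13.3 and 11.5 FPKM in Control and 21.4, 20.5 and 25.4 with IFN-gamma, a rise of 0.89 ± 0.15. Ndufa5 rose by 1.02 ± 0.16, Ndufc1 by 0.99 ± 0.15 and Ndufa12 by 0.87 ± 0.15, all past the threshold with every library left out in turn. By module, 4 of 5 ubiquinone-binding genes rose (median 0.89), 6 of 10 NADH-oxidising genes (median 0.48) and 17 of 20 genes of the membrane arm (median 0.48).

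Some catalytic core subunits of complex I did not pass the threshold. Ndufs1, the largest iron-sulphur subunit, was at 5.71, 5.23 and 6.76 FPKM in Control and 5.87, 6.16 and 5.48 with IFN-gamma, a log2 difference of 0.09 ± 0.09 (edgeR adjusted p = 0.43). Ndufv1, which binds NADH and flavin, differed by 0.19 ± 0.13. The libraries of both groups overlapped for each of these genes. Ndufv2, the partner of Ndufv1, was among those that rose, by 0.63 ± 0.10.

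In complex II, which is also an enzyme of the tricarboxylic acid cycle, the subunits differed from each other. Sdhd, a membrane anchor, was at 64.2, 70.4 and 66.3 FPKM in Control and at 99.4, 101 and 107 with IFN-gamma, a rise of 0.71 ± 0.09 (edgeR adjusted p = 0.00028). Sdhb, the iron-sulphur subunit, rose by 0.61 ± 0.12, from 34.9, 36.1 and 31.7 FPKM to 45.5, 45.8 and 55.2. Sdhc, the other anchor, rose by 0.37 ± 0.11 with adjusted p = 0.019, which became 0.072 without IFN-gamma replicate 3. Sdha, the flavoprotein that oxidises succinate, was at 32.7, 33.4 and 33.5 FPKM in Control and 31.2, 33.4 and 33.9 with IFN-gamma, a difference of 0.08 ± 0.08 (adjusted p = 0.44) with overlapping libraries.

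In complex III, Uqcr10, a small accessory subunit, stood at 24.7, 27.3 and 28.2 FPKM in Control and 52.1, 51.7 and 67.7 with IFN-gamma, a rise of 1.20 ± 0.13 (edgeR adjusted p = 9.3e-05). Uqcrfs1, the Rieske iron-sulphur protein, rose by 0.58 ± 0.08, and Uqcrc2, a core protein, by 0.44 ± 0.07. The core protein Uqcrc1 changed least of the 8, at 0.31 ± 0.08 (edgeR adjusted p = 0.016), and its call was lost without Control replicate 2 or IFN-gamma replicate 3, where adjusted p reached 0.059.

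In complex IV, Cox7b, needed for assembly of the enzyme, had the largest rise: 28.6, 28.9 and 30.8 FPKM in Control against 66.9, 65.9 and 81.3 with IFN-gamma, a log2 change of 1.38 ± 0.10 (edgeR adjusted p = 1.1e-05). Cox5a was at 101, 89.9 and 102 FPKM against 172, 173 and 195, a rise of 0.99 ± 0.10. Cox7a2 rose by 0.99 ± 0.13, Cox6a1 by 0.90 ± 0.11, Cox8a by 0.81 ± 0.11, Cox6b1 by 0.60 ± 0.09 and Cox6c by 0.59 ± 0.13. Cox4i1, the common isoform of the subunit that carries the ATP-binding regulatory site, did not pass the threshold, at 91.9, 98.7 and 87.6 FPKM against 102, 98.8 and 115 (difference 0.28 ± 0.11, adjusted p = 0.076).

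In complex V, Atp5k (the e subunit, which helps the enzyme form dimers) was at 8.60, 6.81 and 10.6 FPKM in Control and 19.6, 17.0 and 26.0 with IFN-gamma, a rise of 1.38 ± 0.18 (edgeR adjusted p = 0.00034). Of the catalytic head, Atp5b rose by 0.89 ± 0.14, Atp5a1 by 0.54 ± 0.09 and Atp5c1 by 0.46 ± 0.09. Atp5b was at 52.3, 51.3 and 82.4 FPKM in Control, the highest of these being replicate 3, one of the Acta2 libraries, and its rise without those libraries was 1.16. Atp5s was the single gene that fell. It stood at 2.87, 3.62 and 3.01 FPKM in Control and 1.46, 1.73 and 1.47 with IFN-gamma, a change of -0.93 ± 0.21 (adjusted p = 0.0063). Atp5s, a coupling factor, is not a structural subunit of the enzyme. Among the 74 genes that encode structural subunits of the complex their symbol names, 59 rose and all 74 fitted differences were above 0. Ndufa4, a complex IV subunit with a complex I symbol, is not among the 74 and differed by -0.07.

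**Figure D2:**
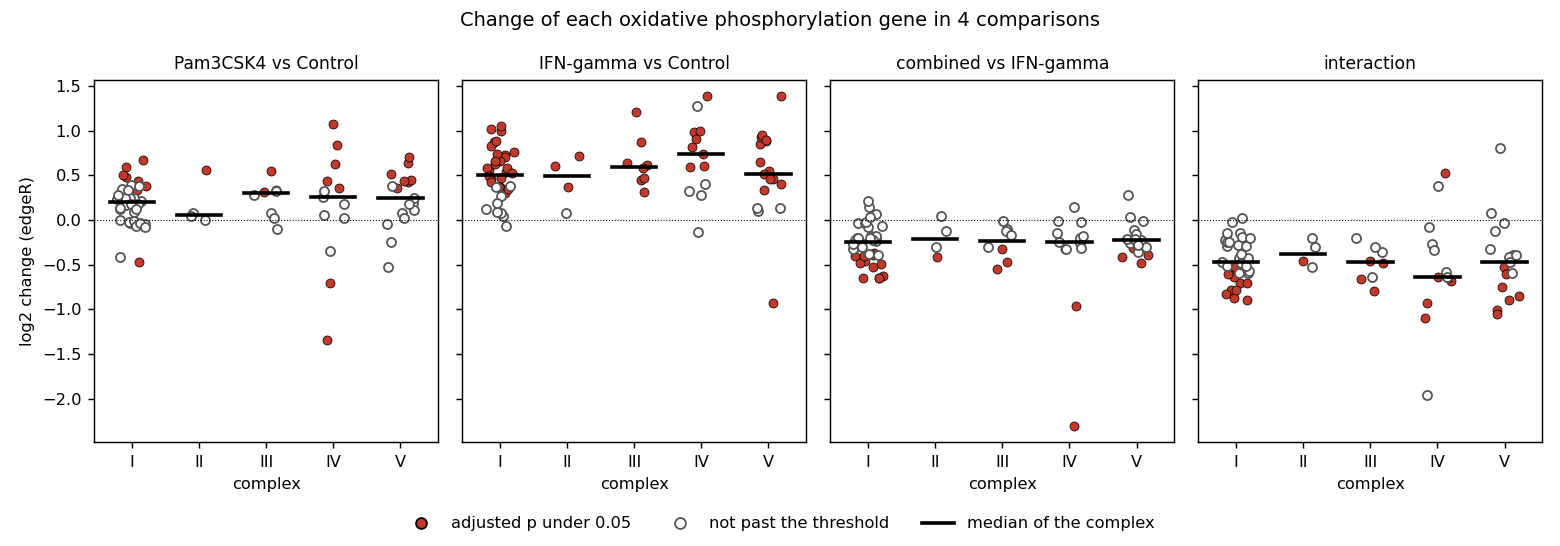
Log2 change of each of the 78 genes (edgeR) in 4 comparisons, by complex. Filled points passed an adjusted p of 0.05, open points did not, and bars are medians; the bars for IFN-gamma against Control lie between 0.49 and 0.74, and those for the interaction between -0.38 and -0.64.

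Short genes differed from long ones in this comparison. By the length that the deposited counts and FPKM imply, 478 tested genes were under 1000 bases, with a median change of 0.20 with IFN-gamma. The 2554 genes of 1000 to 3000 bases had a median of 0.02, and the 7814 genes over 3000 bases a median of -0.10. The members in the same classes had medians of 0.49 (16 genes), 0.62 (37 genes) and 0.49 (25 genes). From IFN-gamma to the combined treatment, all tested genes under 1000 bases had a median of -0.15, close to -0.18 for the members. In the class of 1000 to 3000 bases the medians were -0.12 and -0.26, and over 3000 bases 0.02 and -0.23. The part of length in these results was not tested further.

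Promoter sequence is shown for 4 genes that rose together with IFN-gamma, to let the letters be read beside the values. RefSeq promoters (250 bases before to 50 after the gene start, build GRCm38.p6) were matched by symbol for 62 of the 78 genes, and the 150 bases before the RefSeq start are printed 5′ to 3′ on the gene's strand. Capitals mark matches on either strand to GCATGCG (core of the motif of nuclear respiratory factor NRF1), CCGGAAG (an ETS family motif, as bound by GABP) and ATGGCG (core of the YY1 motif). The NRF1 core overlaps its own reverse complement, so that a match on both strands spans 1 base more. The windows are chr5:108434400-108434549 (minus strand) for Atp5k, chr9:50603850-50603999 (minus strand) for Sdhd, chr9:57521082-57521231 (plus strand) for Cox5a and chrX:106015550-106015699 (plus strand) for Cox7b.
Atp5k: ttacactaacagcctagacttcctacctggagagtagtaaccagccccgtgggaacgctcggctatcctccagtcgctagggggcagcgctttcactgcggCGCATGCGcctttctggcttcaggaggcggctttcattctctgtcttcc
Sdhd: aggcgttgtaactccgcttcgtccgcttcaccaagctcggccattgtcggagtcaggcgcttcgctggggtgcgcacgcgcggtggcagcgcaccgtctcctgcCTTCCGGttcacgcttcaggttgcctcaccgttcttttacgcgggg
Cox5a: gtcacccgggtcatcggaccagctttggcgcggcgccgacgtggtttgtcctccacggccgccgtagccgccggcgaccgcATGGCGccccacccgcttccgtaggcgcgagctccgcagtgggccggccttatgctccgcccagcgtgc
Cox7b: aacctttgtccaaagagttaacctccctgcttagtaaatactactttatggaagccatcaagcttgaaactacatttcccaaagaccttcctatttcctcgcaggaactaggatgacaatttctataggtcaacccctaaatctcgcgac
Atp5k holds an NRF1 core, Sdhd an ETS motif on the opposite strand and Cox5a a YY1 core, whereas none of the 3 motifs is in the printed window of Cox7b, which had the largest rise in complex IV. Over the 67 promoters of the matched members, the NRF1 core was in 16.4%, the ETS motif in 23.9% and the YY1 core in 28.4%. Over the 10240 promoters of tested genes these shares were 6.49, 18.6 and 16%, and over all 32851 promoters 3.58, 8.86 and 8.93%. A match is a description of letters, not of binding.

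The second comparison asks what Pam3CSK4 did on its own. Here 23 of the 78 genes were higher and 3 lower than Control, beside 20.0% and 21.4% of all tested genes (edgeR, adjusted p under 0.05), with a median change of 0.22 against -0.04 over all tested genes. The genes called higher were 7 of 36 in complex I (19.4%, close to the share of all tested genes), 1 of 4 in complex II, 3 of 8 in complex III, 5 of 13 in complex IV and 7 of 17 in complex V. FPKM values did not overlap for 44 genes that were higher and 6 that were lower, beside 28.8% and 30.8% of all tested genes. All 23 also rose with IFN-gamma, a comparison that shares the Control libraries. The count rested on both Pam3CSK4 libraries: 12 genes were called higher without replicate 1 and 8 without replicate 2, where the remaining library is assumed to vary like those of the other groups. Those are 15.4% and 10.3% of the 78 genes, beside 14.4% and 12.9% of all tested genes in the same fits, so the share was then close to that of all genes. Without the Acta2 libraries 24 genes (30.8%) were higher and 5 lower, beside 27.8% and 26.1% of all tested genes.

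Cox5a, a heme-free subunit of complex IV facing the matrix, had the largest rise, from 101, 89.9 and 102 FPKM in Control to 213 and 203 with Pam3CSK4, a log2 change of 1.08 ± 0.11 (edgeR adjusted p = 6.2e-05). Its libraries did not overlap with those of Control. Cox7b went from 28.6, 28.9 and 30.8 FPKM to 54.5 and 52.1, a rise of 0.84 ± 0.11. Ndufc2, a membrane-arm subunit of complex I, went from 40.9, 41.6 and 37.4 FPKM to 64.3 and 65.4, a rise of 0.68 ± 0.13. Uqcrb of complex III rose by 0.55 ± 0.12, Ndufv2 of the NADH-oxidising module by 0.50 ± 0.11 and Atp5f1 of the complex V stalk by 0.45 ± 0.08. These 6 genes kept their calls with each of the 11 libraries left out in turn, and were the only ones of the 23 to do so.

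Some of the genes with the largest rises with IFN-gamma did not pass the threshold here. Ndufs3 was at 14.3 and 13.2 FPKM with Pam3CSK4, inside or near the Control range (difference -0.04 ± 0.10, edgeR adjusted p = 0.79). Sdhd was at 71.5 and 68.2 FPKM (0.04 ± 0.10, adjusted p = 0.76), close to the Control range of 64.2 to 70.4. Uqcr10 was at 31.5 and 35.9 FPKM, both above the Control libraries (0.32 ± 0.14, edgeR adjusted p = 0.094). Within complex II the single gene called was Sdhb, at 50.6 and 52.0 FPKM against at most 36.1 in Control (0.56 ± 0.14, adjusted p = 0.0093, and 0.062 without Pam3CSK4 replicate 2).

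Among the 3 genes that fell, Cox7a2l is a respiratory supercomplex assembly factor that resembles the complex IV subunit Cox7a2. It stood at 185, 182 and 164 FPKM in Control and 108 and 112 with Pam3CSK4, a change of -0.71 ± 0.12 (edgeR adjusted p = 0.0011), kept without any single library. Cox6a2, the isoform of heart and skeletal muscle, went from 5.67, 8.46 and 5.75 FPKM to 2.57 and 2.74, a change of -1.34 ± 0.30 (adjusted p = 0.0063, and 0.051 without Pam3CSK4 replicate 1). The third was Ndufb11 of the complex I membrane arm, at 59.2, 55.2 and 54.1 FPKM against 40.2 and 42.2 (-0.47 ± 0.13, adjusted p = 0.020, and up to 0.11 without Control replicate 1 or either Pam3CSK4 replicate). The count of 3 fell to 1 without Pam3CSK4 replicate 1 and rose to 5 without Control replicate 3.

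**Figure D3:**
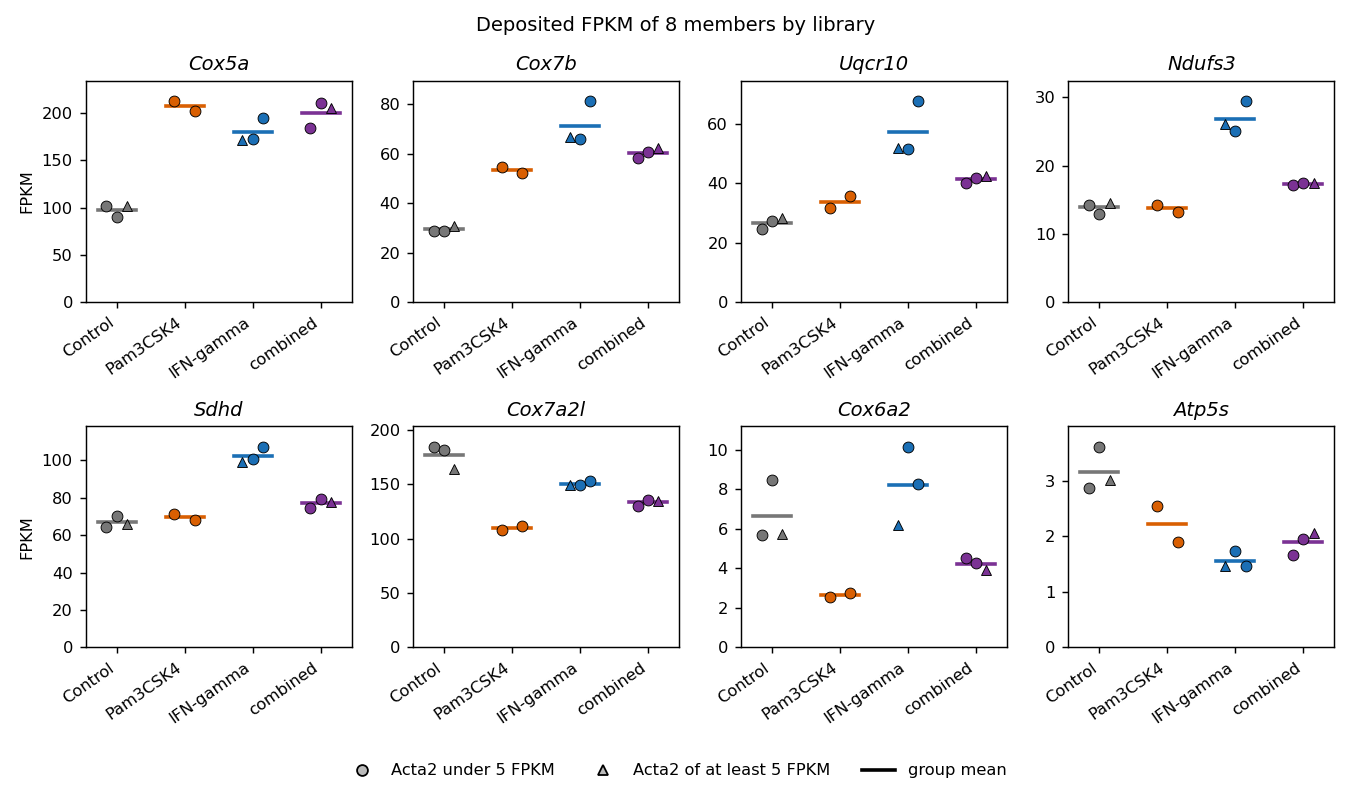
Deposited FPKM of 8 genes in the 11 libraries, each axis from 0. Points are libraries, bars group means and triangles libraries with Acta2 of at least 5 FPKM; Cox5a is high in all treated groups, Ndufs3 and Sdhd are highest with IFN-gamma, and Cox7a2l and Cox6a2 are lowest with Pam3CSK4.

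The third comparison sets the combined treatment beside IFN-gamma alone, which is the question in the title of the series. Levels were lower with prior Pam3CSK4: 23 of the 78 genes fell, beside 17.2% of all tested genes (edgeR, adjusted p under 0.05), and the median change was -0.24 against -0.02. No gene rose in edgeR, DESeq2 or limma, nor did any reach an unadjusted p of 0.05 in edgeR, while 17.0% of all tested genes rose. FPKM values did not overlap for 46 genes that were lower and 1 that was higher, beside 28.2% and 27.7% of all tested genes. The falls were 12 genes of complex I, 1 of complex II, 3 of complex III, 3 of complex IV and 4 of complex V, with medians between -0.21 and -0.25 in all 5. The count fell to 10 without combined replicate 1, 13 without IFN-gamma replicate 3 and 15 without combined replicate 3. Beside these, 12.1%, 12.7% and 12.5% of all tested genes fell, and the 10 genes are 12.8% of the members, close to that share. The count was 29 without the Acta2 libraries, beside 19.4% of all tested genes.

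Ndufs3 went from 26.1, 25.1 and 29.5 FPKM with IFN-gamma to 17.1, 17.5 and 17.4 with both agents, a change of -0.64 ± 0.09 (edgeR adjusted p = 0.00053). Ndufs7 went from 21.4, 20.5 and 25.4 FPKM to 13.6, 14.8 and 14.8, a change of -0.65 ± 0.15. The groups did not overlap for either, and the combined libraries of Ndufs7 lay in or near its Control range of 11.5 to 14.1. Ndufa12, an accessory subunit of the NADH arm, changed by -0.65 ± 0.15 and Ndufa1, a small membrane-arm subunit, by -0.63 ± 0.16. Sdhd went from 99.4, 101 and 107 FPKM to 74.5, 79.5 and 77.9 (-0.42 ± 0.09, adjusted p = 0.0069). These 5 were among 9 genes whose calls held with each library left out in turn, which also included Ndufa9, Ndufb11, Ndufv3 and Cox4i2. Of these, Cox4i2 passed the FPKM filter only through its IFN-gamma libraries, which favours a fall from that group.

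Cox5a and Cox7a2 stayed near their IFN-gamma levels. Cox5a was at 185, 211 and 206 FPKM with both agents (0.15 ± 0.10 relative to IFN-gamma, edgeR adjusted p = 0.29) and Cox7a2 at 94.3, 102 and 95.9 against 96.9, 88.0 and 109 (-0.02 ± 0.13, adjusted p = 0.92). The libraries of both groups overlapped for each gene.

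Against Pam3CSK4 alone, few genes of the combined group passed the threshold, in a comparison that rests on 2 Pam3CSK4 libraries. By mean log2(CPM), all combined libraries lay above both Pam3CSK4 libraries in complexes III, IV and V. In complex III they stood at 0.34 to 0.45 above the Control mean, against 0.20 to 0.26 with Pam3CSK4. Ndufs3 was the single gene called, with 0.44 ± 0.10 (edgeR adjusted p = 0.024), beside 6.06% of all tested genes higher and 3.04% lower. FPKM values did not overlap for 17 genes that were higher and 18 that were lower, beside 18.0% and 39.2% of all tested genes. The Ndufs3 call was lost in 5 of the 11 fits without 1 library, and the number of genes called higher ranged from 0 to 3 over those fits: it was 0 without either Pam3CSK4 replicate or any combined replicate, 2 without IFN-gamma replicate 3 and 3 without Control replicate 3. Without the Acta2 libraries 2 genes were higher, beside 11.2% of all tested genes. No gene was called lower by edgeR, DESeq2 or limma, and 1 had an unadjusted p under 0.05 in edgeR. Medians by complex were 0.03, 0.08, 0.23, 0.22 and 0.06 from complex I to V, and those of complexes I, II and V turned negative when libraries were scaled by their totals only, at -0.07, -0.03 and -0.04.

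Against Control, the combined group kept part of the rise. Of the 78 genes 37 were higher and 3 lower, beside 23.4% and 24.2% of all tested genes, with a median change of 0.27 (edgeR, adjusted p under 0.05). FPKM values did not overlap for 38 genes that were higher and 7 that were lower, beside 22.9% and 35.2% of all tested genes. By complex, 13 of 36, 2 of 4, 5 of 8, 8 of 13 and 9 of 17 genes rose. The largest rises were in Cox5a (1.13 ± 0.10), Cox7b (1.13 ± 0.10), Atp5k (1.03 ± 0.18) and Cox7a2 (0.98 ± 0.13), all kept with any library left out. The lower genes were Ndufb11, Cox7a2l (-0.32 ± 0.10) and Atp5s (-0.65 ± 0.21). Ndufb11 was at 36.8, 38.1 and 41.4 FPKM against 59.2, 55.2 and 54.1 (-0.45 ± 0.12, adjusted p = 0.011). The count of lower genes was 1 without Control replicate 2 or any 1 of the combined replicates, with Ndufb11 called in each. Without the Acta2 libraries 33 genes were higher and 3 lower, beside 28.6% and 24.6% of all tested genes.

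The interaction tests whether the effect of Pam3CSK4 differed in the presence of IFN-gamma. In the combined group Pam3CSK4 was given first and IFN-gamma after it. Order and time since the first stimulus therefore cannot be told apart from a joint effect here. It was below 0 for 73 of the 78 genes: 29 passed the threshold as lower and 1 as higher, beside 8.02% and 8.01% of all tested genes (edgeR, adjusted p under 0.05), with a median of -0.48 against 0.06. The gene above 0 was Cox7a2l (0.53 ± 0.15, adjusted p = 0.045), whose call was lost in 10 of the 11 fits without 1 library, all but that without Control replicate 3. The 29 were 12 genes of complex I, 1 of complex II, 4 of complex III, 5 of complex IV and 7 of complex V. The changes of both agents alone thus exceeded, when added, the change with both together for these genes. The largest that held with any library left out was Cox7b, at -1.09 ± 0.15 (adjusted p = 0.0022): its sum of single changes was built on 0.84 and 1.38, and its combined change was 1.13. Cox5a (-0.93 ± 0.15, adjusted p = 0.0039), Atp5g3 (-0.85 ± 0.15, adjusted p = 0.0063) and Atp5f1 (-0.60 ± 0.11, adjusted p = 0.0089) were the only others that held.

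The interaction count moved more than any other with single libraries. It was 4 without Pam3CSK4 replicate 2, 11 without Pam3CSK4 replicate 1, 9, 19 and 13 without combined replicates 1, 2 and 3, 14 without IFN-gamma replicate 3 and 19 without Control replicate 2. In these fits 3.26 to 6.58% of all tested genes were lower, the smallest share being that without Pam3CSK4 replicate 2, where the 4 genes are 5.13% of the members. Without the Acta2 libraries 31 genes were lower and 1 higher, beside 14.5% and 13.8% of all tested genes, with medians by complex between -0.38 and -0.61.

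Isoforms of 1 subunit are given side by side, with no test of the difference between them. Of the pair Cox6a1 and Cox6a2, the ubiquitous isoform Cox6a1 rose with IFN-gamma, from 109, 105 and 112 FPKM to 182, 174 and 210. The muscle isoform Cox6a2 was at 6.20, 10.2 and 8.28 FPKM against 5.67, 8.46 and 5.75 and did not pass the threshold (edgeR adjusted p = 0.23). Cox4i2 was at 0.286, 0.652 and 0.384 FPKM in Control, 1.09, 0.920 and 1.03 with IFN-gamma and 0.0426, 0.254 and 0.308 with both agents. Its fall from IFN-gamma to the combined group was -2.30 ± 0.56 (edgeR adjusted p = 0.011), at levels near the minimum for testing. Cox4i2 reached 1 FPKM in IFN-gamma replicates 1 and 3 alone. It thus passed the filter only through the group where it was high, which favours a fall from that group. The 3 genes of the c-ring, the rotor through which protons pass, encode the same mature protein: Atp5g1 rose with IFN-gamma by 0.93 ± 0.15, Atp5g3 by 0.95 ± 0.10, and Atp5g2 differed by 0.10 ± 0.20 (adjusted p = 0.72). Atp5g3 was the most abundant of them, at 27.6, 26.2 and 31.3 FPKM in Control, with Atp5g1 at 1.09, 1.40 and 1.52 and Atp5g2 at 1.17, 1.08 and 1.30.

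Ndufa4 has a paralogue, AA467197 (also called Nmes1), which lies outside the symbol rule. Ndufa4, once assigned to complex I and now known as a complex IV subunit, was at 12.3, 16.3 and 16.9 FPKM in Control, 22.4 and 16.5 with Pam3CSK4, 12.3, 11.7 and 16.1 with IFN-gamma and 14.8, 15.3 and 12.1 with both, and was not called in any of the comparisons. AA467197 was at 2.42, 2.27 and 3.84 FPKM in Control, 16.3 and 13.4 with Pam3CSK4, 165, 146 and 150 with IFN-gamma and 140, 134 and 131 with both. It rose by 2.38 ± 0.16 with Pam3CSK4 (edgeR adjusted p = 6.6e-06) and by 5.87 ± 0.17 with IFN-gamma (adjusted p = 3.4e-08), with no overlap between any treated library and Control. Its interaction was -2.58 ± 0.21 (adjusted p = 0.00018). All 3 calls held with any library left out.

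**Figure D4:**
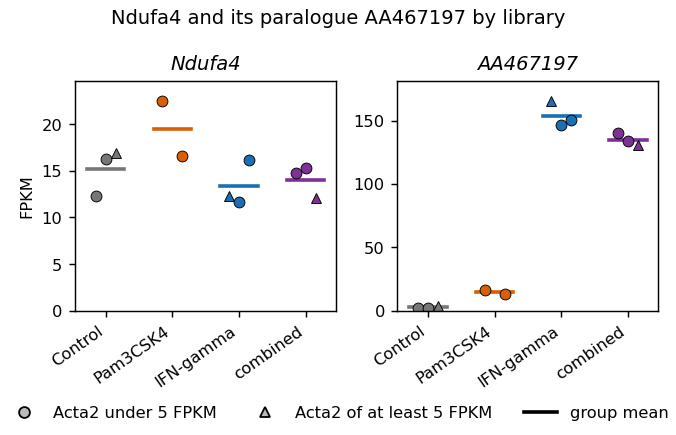
Deposited FPKM of Ndufa4 and of its paralogue AA467197 in the 11 libraries, axes from 0. Points are libraries and bars group means; Ndufa4 stays between 11.7 and 22.4 FPKM, and AA467197 goes from at most 3.84 in Control to at least 131 in both groups given IFN-gamma.

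In the comparisons of single agents with Control, the subunits encoded in mitochondrial DNA did not follow the nuclear ones. Of the 13 genes, 7 passed the filter, and 5 of these fell with Pam3CSK4 (median -0.90), beside 21.4% of all tested genes. mt-Cytb, the heme-bearing core of complex III, went from 1979, 2424 and 2510 FPKM in Control to 1033 and 1005 with Pam3CSK4, a change of -1.19 ± 0.11 (edgeR adjusted p = 3.5e-05). mt-Nd4, a proton-pumping subunit of complex I, went from 1469, 1892 and 1498 FPKM to 929 and 828, a change of -0.91 ± 0.15. mt-Nd6 changed by -0.90 ± 0.19, with the reservation that it lies on the opposite strand to its neighbours and the strand setting of the counting is not given. mt-Nd2 (-0.93 ± 0.20) and mt-Nd5 (-0.66 ± 0.16) lost their calls without Pam3CSK4 replicate 2. mt-Nd1 stood at 1886 and 1875 FPKM with Pam3CSK4 against 1908 to 2122 in Control, a difference of -0.12 ± 0.13 (adjusted p = 0.48). With IFN-gamma the median of the 7 was -0.33 and 1 gene fell, mt-Cytb (-0.33 ± 0.09), beside 21.6% of all tested genes. Its call was lost without Control replicate 2 or IFN-gamma replicate 2. Without the Acta2 libraries 4 genes fell, beside 22.6% of all tested genes. From IFN-gamma to the combined treatment both sets moved the same way. Of the 7 mitochondrial genes 4 fell (median -0.41), beside 17.2% of all tested genes, and the nuclear genes had a median of -0.24. Without the Acta2 libraries 3 fell, beside 19.4% of all tested genes. Of the 4, mt-Cytb, at -0.63 ± 0.09, kept its call with any library left out.

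The 6 other mitochondrial genes are mt-Co1, mt-Co2, mt-Co3, mt-Atp6, mt-Atp8 and mt-Nd3. They are listed at 0 or below 1 FPKM in the deposited table, which for genes that every respiring cell uses can be a failed estimate, and mt-Nd4l is listed at 0 in 6 libraries. The exception is mt-Co1 in combined replicate 2, listed at 10029 FPKM. The mitochondrial genome therefore gives no value for its complex IV and complex V subunits here.

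**Figure D5:**
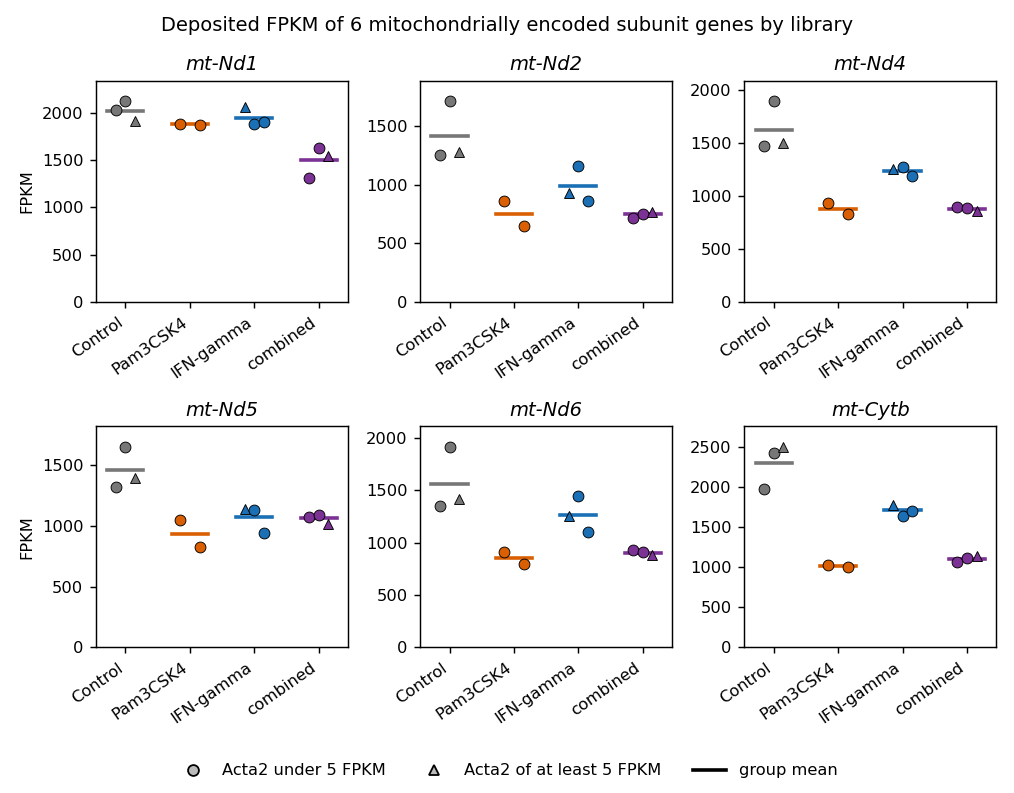
Deposited FPKM of 6 subunit genes of mitochondrial DNA in the 11 libraries, axes from 0. Points are libraries (triangles, Acta2 of at least 5 FPKM) and bars group means; for mt-Cytb, mt-Nd2, mt-Nd4, mt-Nd5 and mt-Nd6 both Pam3CSK4 libraries lie below the 3 Control libraries.

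Other genes of the pathway were read from lists by function. Their counts are to be read against all tested genes, of which 20.0% rose and 21.6% fell with IFN-gamma and 20.0% and 21.4% with Pam3CSK4. For list counts without the Acta2 libraries, the shares of all tested genes were 24.2% and 22.6% with IFN-gamma. With Pam3CSK4 they were 27.8% and 26.1%. Of 18 tested electron carriers and subunits with other symbols, 9 rose and 2 fell with IFN-gamma (median 0.38), and 7 rose and 5 fell with Pam3CSK4 (median 0.11). Without the Acta2 libraries these counts were 10 and 2, and 7 and 5. Beside AA467197, which is on this list, Coq7, an enzyme of ubiquinone synthesis, rose with IFN-gamma by 1.54 ± 0.12 and Cycs, which encodes cytochrome c, by 1.28 ± 0.13 (edgeR adjusted p = 8.9e-05). Gpd2, the glycerol-3-phosphate dehydrogenase that feeds electrons to ubiquinone, rose with Pam3CSK4 by 1.30 ± 0.20, from 2.13, 2.39 and 3.76 FPKM to 7.12 and 6.42, and was higher with both agents than with IFN-gamma alone by 1.85 ± 0.19. Of 44 assembly factors, 13 rose and 2 fell with IFN-gamma (median 0.15; 12 and 4 without the Acta2 libraries), among them Coa5 (1.33 ± 0.13), Sco1 (1.01 ± 0.16) and Ndufaf6 (0.92 ± 0.18). With Pam3CSK4 8 rose and 3 fell (median 0.14; 13 and 4 without the Acta2 libraries), among them the copper chaperone Cox17, by 0.76 ± 0.16.

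Of 21 genes of the tricarboxylic acid cycle and its entry points, 6 rose and 3 fell with IFN-gamma (median 0.22), and 7 rose and 3 fell with Pam3CSK4 (median 0.15). Without the Acta2 libraries 12 rose and 2 fell with IFN-gamma, and 11 rose and 2 fell with Pam3CSK4. Pcx, pyruvate carboxylase, rose with Pam3CSK4 by 2.07 ± 0.16, from 2.18, 2.59 and 1.91 FPKM to 9.43 and 9.66 (edgeR adjusted p = 1.2e-05). Idh2, the mitochondrial NADP-linked isocitrate dehydrogenase, fell with IFN-gamma, by 1.03 on the log2 scale. Fatty acid oxidation went the other way with Pam3CSK4: 5 of 14 genes fell (median -0.36; 6 without the Acta2 libraries), led by Hadh (-1.07 ± 0.11), Acaa2 (-1.02 ± 0.20) and Acadm (-0.73 ± 0.14), enzymes of the beta-oxidation spiral. With IFN-gamma 1 of the 14 rose and 1 fell, and 3 fell without the Acta2 libraries.

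Of 13 tested regulators of mitochondrial biogenesis, 2 rose and 3 fell with IFN-gamma (median -0.10), and 3 rose and 3 fell with Pam3CSK4 (median -0.13), shares close to those of all tested genes. The counts without the Acta2 libraries were 2 and 4 with IFN-gamma, and 3 and 2 with Pam3CSK4. Esrra, a nuclear receptor that binds promoters of respiratory genes, rose with IFN-gamma by 0.78 ± 0.18, while Gabpb1, a subunit of GABP, changed by -0.67 ± 0.09 and Peo1, the mitochondrial helicase, by -0.87 ± 0.19 (edgeR). Of 22 import, channel and chaperone genes, 11 rose and 2 fell with IFN-gamma (median 0.33), and 15 rose and none fell without the Acta2 libraries. They included the ATP/ADP carrier Slc25a5 (0.95 ± 0.09), which was at 94.2, 105 and 100 FPKM in Control, 174, 178 and 190 with IFN-gamma and 107, 110 and 118 with both agents. Ucp2, an uncoupling protein family carrier, fell with Pam3CSK4 from 551, 523 and 370 FPKM to 98.6 and 114, a change of -2.21 ± 0.22 (adjusted p = 6.2e-05). It was at 711, 677 and 708 FPKM with IFN-gamma and 118, 124 and 139 with both.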

How the data were processed

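RNA of 11 libraries was sequenced, and the authors deposited 1 table with whole-number counts per gene and an FPKM value per gene and library. Reads were processed with Cufflinks 2.1.1, Cuffdiff and TopHat2 2.1.0 on the mm10 build, per the submitters' processing notes. Which tool, annotation and strand setting gave the counts is not given in the sources used here. Samples were grouped by title. A gene entered the tests with an FPKM of 1 or more in 2 or more libraries. Deposited counts were tested with edgeR 4.0.16 (quasi-likelihood test, TMM scaling, 1 model over the 4 groups, with contrasts for each comparison and the interaction), with Benjamini-Hochberg adjustment over all 10938 tested genes and a threshold of 0.05. The standard error was the log2 change divided by the root of the F statistic. FPKM values were used as deposited. DESeq2 1.42.0, limma 3.58.1 on log2(FPKM + 1), other scalings and filters, a replicate block and fits without single libraries or the Acta2 libraries were alternatives. The model was checked on simulated counts. Library totals of 15033702 to 20321017 counts set the precision, and replicate pairs differed by more than sampling noise (chi-square per gene of 15.6 to 177). The members and gene lists were chosen with earlier results of these data known, so no list was tested as a set. Genes were named by rule: all complex II genes, up to 3 with the largest rise and fall past the threshold per complex and comparison, members with no overlap and at least a 1.5-fold change, a panel of core subunits, isoform pairs, and up to 3 genes per other list. Results of some genes are not reported here.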

Additional observations from a re-analysis of the deposited data

Results flagged for a closer look

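For 30 of the 78 genes the effect of Pam3CSK4 with IFN-gamma differed from its effect without IFN-gamma, by the interaction term of edgeR (adjusted p under 0.05). The order of the agents and the time since the first stimulus also differ between these groups. Of the 30, 29 were lower and 1 higher, beside 8.02% and 8.01% of all tested genes. Without combined replicate 1, 9 of the 78 genes (11.5%) were lower, beside 4.6% of all tested genes. In complex I the differences, on the log2 scale and each below 0, were -0.90 for Ndufa12, -0.88 for Ndufa5, -0.60 for Ndufa8, -0.71 for Ndufa9, -0.54 for Ndufb5, -0.78 for Ndufb6, -0.63 for Ndufb7, -0.83 for Ndufc1, -0.61 for Ndufs3, -0.78 for Ndufs7, -0.71 for Ndufv2 and -0.52 for Ndufv3. In complex II the difference was -0.46 for Sdhd. In complex III it was -0.80 for Uqcr10, -0.66 for Uqcrb, -0.46 for Uqcrc1 and -0.48 for Uqcrc2. In complex IV it was -0.93 for Cox5a, -0.68 for Cox6a1, -0.64 for Cox6c, -1.09 for Cox7b and -0.64 for Cox8a, and 0.53 for Cox7a2l. In complex V it was -0.53 for Atp5a1, -0.89 for Atp5b, -0.60 for Atp5f1, -1.002 for Atp5g1, -0.85 for Atp5g3, -1.06 for Atp5k and -0.75 for Atp5o. Of these, Cox7b, Cox5a, Atp5g3 and Atp5f1 passed the threshold with each library left out in turn. The 12 genes of complex I were 3 of 10 of the NADH-oxidising module, 3 of 5 of the ubiquinone-binding module (median -0.61) and 6 of 20 of the membrane arm.

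A mitochondrial gene outside the tests also stood out. mt-Co1, the catalytic subunit of complex IV, was listed at 10029 FPKM (314863 counts) in combined replicate 2 and at 0 in the 10 other libraries. Its counts were part of that library's total: the share of counts on the 78 genes there was 0.609% with them and 0.619% without. The cause was not tested.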

How the results depend on the processing

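No call of a named gene was reversed under the alternatives run. Over all alternatives, the calls of named genes held 2670 times and no longer passed the threshold 350 times. The share of all tested genes called also moved with the setting, so the counts below are not compared by size alone. With no filter on low counts, 9.93% of all tested genes were lower in the combined group than in Control, and 2.81% were lower for the interaction.

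For IFN-gamma against Control, library totals as the only scaling and limma each gave 2 lower genes in place of 1. Medians by complex were 0.38, 0.38, 0.49, 0.50 and 0.39 from I to V with limma, 0.50 in complex III and 0.41 in complex V with library totals, and 0.59 in complex V without the Acta2 libraries. Leaving out single libraries gave 49 to 57 higher and 1 to 2 lower genes, and medians of 0.61 to 0.80 in complex IV and 0.39 to 0.59 in complex V.

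For Pam3CSK4 against Control, 5 genes were lower without the Acta2 libraries, and single libraries left out gave 8 to 26 higher and 1 to 5 lower genes, with complex V at 0.21 to 0.36. Counting structural subunits alone gave complex V a median of 0.36, and 0.42 for the combined group against Control.

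For the combined group against IFN-gamma, 12 genes (15.4%) were lower with no filter on low counts, beside 6.36% of all tested genes. Complex V was at -0.34 without the Acta2 libraries. Single libraries left out gave 10 to 34 lower genes, with complex V at -0.31 to -0.14. Against Pam3CSK4, no gene was higher with no filter or with the block, and 2 were with library totals, DESeq2, limma or without the Acta2 libraries, and 0 to 3 with single libraries left out. Medians there were -0.073, 0.12 and -0.042 in complexes I, III and V with library totals, and 0.12 and -0.030 in III and V with limma. Against Control, 0 genes were lower with no filter, 1 with filterByExpr and 1 to 3 with single libraries left out, which gave 27 to 40 higher genes. Complex V was at 0.37 with no filter, 0.20 with library totals or upper-quartile factors, 0.17 with limma and 0.25 to 0.39 with single libraries left out.

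For the interaction, no gene was higher with no filter, with filterByExpr or with the block, and 2 were with limma. There were 18 lower genes with no filter, and 4 to 35 with single libraries left out, with 0 to 1 higher. Complex V was at -0.61 without the Acta2 libraries and -0.54 to -0.36 with single libraries left out. The causes of these shifts were not tested. Scaling by totals moved the median of all genes with IFN-gamma from -0.07 to -0.17.

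Replicate numbers were not used to pair the samples in the main fit. The submitters' sample numbers skip 1 value between the 2 Pam3CSK4 libraries. Replicate 2 of that group may therefore belong with replicate 3 of the others, which the block and the correlations do not allow for. Correlations of same-numbered libraries' deviations ran from -0.72 (Control and IFN-gamma replicate 1) to 0.71 (Control and combined replicate 3). The deviations were taken from group means that include the Acta2 libraries, so these correlations cannot show whether samples were paired. With a replicate block the counts of higher and lower genes were 19 and 3 for Pam3CSK4, 54 and 1 for IFN-gamma, 33 and 2 for the combined group against Control, 18 lower against IFN-gamma, none against Pam3CSK4 and 19 lower for the interaction. In that fit 17.9% and 19.8% of all tested genes were called for Pam3CSK4, and 18.7% and 19.4% for IFN-gamma. The shares were 22.2% and 22.5% for the combined group against Control, 15.2% lower against IFN-gamma and 5.9% lower for the interaction.

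With 2 Pam3CSK4 libraries, the spread of that group rests mainly on the others. Genes near 1 FPKM, such as Cox4i2 and Ndufb4, have few counts behind them.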

Other observations

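Genes for mitochondrial ribosomal proteins, which translate the subunits encoded in mitochondrial DNA, were read beside the subunits; this family and the next were chosen after their values were seen. Of all tested genes, 20.0% rose and 21.6% fell with IFN-gamma, 20.0% and 21.4% with Pam3CSK4, and 17.0% and 17.2% from IFN-gamma to the combined treatment. Of 77 tested, 43 rose and 1 fell with IFN-gamma (median 0.40 on the log2 scale), 29 rose and none fell with Pam3CSK4 (median 0.29), and 14 fell and 3 rose from IFN-gamma to the combined treatment (median -0.15). The interaction passed the threshold for 22 of them, all below 0 (edgeR, adjusted p under 0.05, median -0.44), beside 8.02% lower and 8.01% higher of all tested genes. Counts of these families were not read from fits without single libraries. Of 76 tested genes for cytosolic ribosomal proteins, 10 rose (13.2%) and 13 fell (17.1%) with IFN-gamma, both below the shares of all tested genes, and 3 rose and 26 fell with Pam3CSK4 (median -0.25). From IFN-gamma to the combined treatment 27 of them fell and 2 rose (median -0.25).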
